A study of Homo sapiens with 2 samples.

Results

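The genes of the urokinase system and its inhibitors were examined in A549 cells, a human lung adenocarcinoma line. The set was PLAU, PLAT, PLAUR, SERPINE2, CDCP1, TIMP1, TIMP2, TIMP3 and MMP14, found by their symbols, and 8 of these 9 were among the 13137 genes measured. MMP14 was not analysed here. The set was selected on the tag counts of the same 2 libraries that are compared here, so the differences between libraries are given as a description and carry no test. Both libraries came from A549 polyclones that carried a doxycycline-inducible hairpin, delivered by lentivirus and selected with puromycin, and both polyclones received doxycycline for 4 days. The hairpin was directed against SOX2 in shRNA-SOX2, and it was a control hairpin in shRNA-Con. Expression was measured by digital gene expression (DGE), in which a short tag is read from each captured poly(A) RNA and the tags are counted per gene. Each group was 1 library from 1 polyclone, a pool of transduced cells, so the hairpin and the culture cannot be told apart. With this design, no difference had a replicate check and no p-value is given.

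PLAU is a secreted serine protease that turns plasminogen into plasmin, and its receptor PLAUR holds it at the cell surface, where plasmin breaks down fibrin and matrix and activates other proteases. Serpins such as SERPINE2 trap the activators in inactive complexes, and the TIMP proteins block matrix metalloproteinases. CDCP1 is a transmembrane glycoprotein that plasmin and related serine proteases can cut and that SRC family kinases phosphorylate. These genes are known in lung cancer and other carcinomas for their part in invasion.

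The libraries held 2304184 (shRNA-Con) and 2093816 (shRNA-SOX2) gene tags, so 3 tags stood for 1.30 and 1.43 CPM, the tag count scaled to 1000000 gene tags of the library. SOX2, the targeted gene, had 16 tags in shRNA-Con against 23 in the library with the shRNA-SOX2 label, a ratio of 1.58 with a 95% Clopper-Pearson interval of 0.80 to 3.20. The tags of the targeted gene were therefore not lower where the label says it was silenced, and they do not check which column is which library. The columns were assigned by their names, and the directions below are those of the library with the shRNA-SOX2 label relative to shRNA-Con. All intervals cover counting error only. Of the markers of epithelial and A549 cells, 7 of 8 were listed, with 12174 and 12888 CPM in sum, but these genes went different ways. KRT7 was 2.21-fold lower in the library with the shRNA-SOX2 label (3899 and 1606 tags), KRT19 was 3.99-fold higher (35 and 127) and KRT8 was 1.82-fold higher (7702 and 12729), while EPCAM had 8 and 4 tags only. The part of these differences in the results below was not tested. The summed markers of fibroblasts had 46 and 54 tags (44 and 43 of them from COL1A1), those of endothelial cells 3 and 0, and those of leukocytes 4 and 11.

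The promoters of the genes with the widest differences are shown first, since the hairpin was aimed at a transcription factor. No binding or chromatin was measured, so the letters are a description of the sequence only. Each line gives the 90 bases from 120 to 31 bases before a RefSeq start site (GRCh38.p14), 5′ to 3′ on the strand of the gene, with capitals for GC boxes (GGGCGG, either strand).
PLAU (chr10:73911012-73911101, plus strand): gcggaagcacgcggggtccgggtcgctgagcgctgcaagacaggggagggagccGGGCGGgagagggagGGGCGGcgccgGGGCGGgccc
CDCP1 (chr3:45146409-45146498, minus strand): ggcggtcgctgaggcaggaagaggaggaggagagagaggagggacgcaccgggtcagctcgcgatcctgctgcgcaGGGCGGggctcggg
SERPINE2 (chr2:224031509-224031598, minus strand): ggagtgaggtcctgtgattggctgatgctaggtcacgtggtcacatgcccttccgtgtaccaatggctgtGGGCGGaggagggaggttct
TIMP3 (chr22:32801585-32801674, plus strand): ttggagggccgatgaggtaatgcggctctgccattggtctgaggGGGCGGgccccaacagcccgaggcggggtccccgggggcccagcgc

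The PLAU stretch held 3 GC boxes in a row, and the other 3 stretches held 1 each. The table has another start for PLAU (73910610) and for SERPINE2 (224038640), and the same stretch before those starts held 0 GC boxes. The starts shown (73911132 and 224031478) and these others all lie inside the RefSeq gene ranges given below, whose 5′ ends were not used here, so the GC boxes are those of 1 chosen start per gene. A GC box, the core of the site of SP family factors, was found in 45.0% of the 35116 promoter windows of 300 bases in the RefSeq table. A SOX core (CATTGT or CTTTGT, either strand), found in 24.5% of all windows, was in the PLAU window, at -133 from the start, and not in those of CDCP1, SERPINE2 or TIMP3. The window of the other start held 2 SOX cores for PLAU and 0 for SERPINE2. An AP-1 site (TGANTCA, either strand), found in 7.71% of all windows, was in the PLAUR window and in no other window of these genes. It is shown in capitals within 30 bases, since PLAUR is the partner of PLAU whose tags were alike in both libraries.
PLAUR (chr19:43670337-43670366, minus strand): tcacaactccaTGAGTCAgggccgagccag

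PLAU (chromosome 10, 73908832 to 73917494, GRCh38.p14), the urokinase-type activator, had 224 tags in shRNA-Con against 24 in the library with the shRNA-SOX2 label. This was 97.2 against 11.5 CPM, or 8.48-fold lower in the library with the shRNA-SOX2 label (interval 5.56 to 13.5). The counting intervals of the 2 levels, 84.9 to 111 and 7.34 to 17.1 CPM, lay far apart. On the log2 scale the ratio was -3.08, and 17 of the 10045 genes with 20 tags or more over both libraries had a lower value. C10orf55, which lies across PLAU on the opposite strand, had 0 and 2 tags. In RNA from a whole culture, fewer cells with PLAU RNA and less of it in each cell cannot be told apart.

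PLAT (chromosome 8, 42174718 to 42207565), the tissue-type activator that works mainly on fibrin, had 10 tags in each library. Its level was 4.34 CPM in shRNA-Con and 4.78 in the library with the shRNA-SOX2 label, and its ratio of 1.10 had an interval of 0.41 to 2.95. A change of 2-fold in PLAT was not detectable at this depth. PLAU made up 95.7% of the tags of both activators in shRNA-Con (interval 92.3% to 97.9%) and 70.6% in the library with the shRNA-SOX2 label (52.5% to 84.9%).

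PLAUR (chromosome 19, 43646095 to 43670169), the receptor of PLAU, had 68 and 64 tags, or 29.5 and 30.6 CPM. Its ratio was 1.04 (interval 0.725 to 1.48), and the sign of its log2 ratio turned with the scaling, from 0.05 per gene tag to -0.06 per clean tag of the whole library. The interval leaves out a 2-fold change either way, as far as counting error goes. The tags of ligand and receptor thus stood in a different ratio in the 2 libraries. There were 3.29 PLAU tags for each PLAUR tag in shRNA-Con (interval 2.50 to 4.39) and 0.375 in the library with the shRNA-SOX2 label (0.224 to 0.608).

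SERPINE2 (chromosome 2, 223975045 to 224039286), a secreted serpin that inhibits thrombin, PLAU and plasmin, had 479 tags in shRNA-Con against 1122 in the library with the shRNA-SOX2 label. Its level was 208 and 536 CPM, a ratio of 2.58 (interval 2.31 to 2.87). It was thus higher in the library in which PLAU was lower. For each PLAU tag there were 2.14 SERPINE2 tags in shRNA-Con (interval 1.82 to 2.52) and 46.8 in the library with the shRNA-SOX2 label (31.3 to 73.3). Of the 410 genes with total tags within 1.5 times those of SERPINE2, 14 had a higher ratio.

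CDCP1 (chromosome 3, 45082277 to 45146482) had 97 tags in shRNA-Con against 6 in the library with the shRNA-SOX2 label. Its level was 42.1 against 2.87 CPM, 14.7-fold lower in the library with the shRNA-SOX2 label (interval 6.51 to 41.0). On the log2 scale this was -3.88, and 5 genes of the 10045 had a lower value. Among the 2574 genes whose total tags were within 1.5 times those of CDCP1, 1 had a lower ratio, and for PLAU it was 1 of 2325. Both thus lay at the low edge of genes counted about as often as they were.

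**Figure D1:**
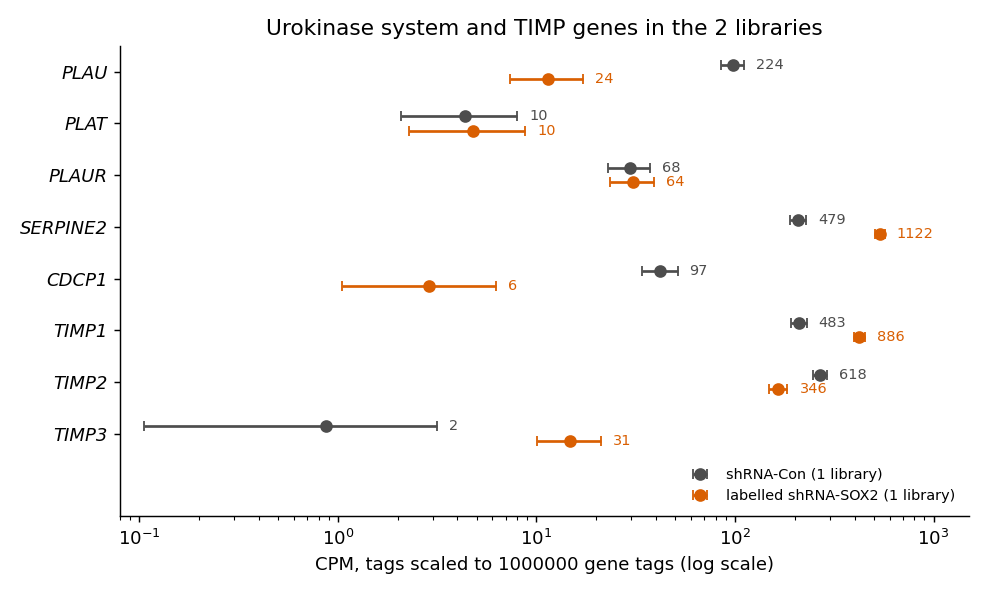
CPM (horizontal axis, log scale) of the 8 genes in shRNA-Con (grey) and in the library with the shRNA-SOX2 label (orange), 1 library each, with 95% Clopper-Pearson counting intervals as bars and the tag count beside each point. The intervals of PLAU, CDCP1, SERPINE2, TIMP1, TIMP2 and TIMP3 do not overlap between the libraries, and those of PLAT and PLAUR do. The share of all genes whose intervals do not overlap was not computed. These genes were selected on this contrast, so nothing is read from the overlaps as a set.

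TIMP1 (chromosome X, 47582436 to 47586789) encodes a soluble inhibitor of most matrix metalloproteinases. It had 483 tags in shRNA-Con against 886 in the library with the shRNA-SOX2 label, or 210 and 423 CPM. The ratio of 2.02 (interval 1.80 to 2.26) lay at the threshold of 2, and per clean tag of the whole library its log2 ratio was 0.90 in place of 1.01, below that threshold. Of the 514 genes counted within 1.5 times as often as TIMP1, 47 had a higher ratio. TIMP1 lies within SYN1, which runs on the opposite strand and was not analysed here.

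TIMP2 (chromosome 17, 78852977 to 78925387), which inhibits metalloproteinases and also joins MMP14 at the cell surface in the activation of MMP2, went the other way from TIMP1. It had 618 tags in shRNA-Con against 346 in the library with the shRNA-SOX2 label, or 268 and 165 CPM. The level was 1.62-fold lower in the library with the shRNA-SOX2 label (interval 1.42 to 1.86), which did not reach 2-fold. Of the 791 genes with tags within 1.5 times those of TIMP2, 131 had a lower ratio. CEP295NL lies inside TIMP2 on the same strand, 3 further annotated genes lie there on the opposite strand, and none of them was analysed here.

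TIMP3 (chromosome 22, 32801705 to 32863041), the matrix-bound family member that also inhibits ADAM17, had 2 tags in shRNA-Con against 31 in the library with the shRNA-SOX2 label. Its level was 0.868 and 14.8 CPM, and the ratio as counted was 17.1 with an interval of 4.34 to 147. The width of this interval came from the 2 tags, which are also the fewest listed for any gene above 0. With counts below 3 set to 3, the log2 ratio was 3.51, and 18 of the 10045 genes had a higher value. TIMP3 lies within SYN3, which runs on the opposite strand and was not analysed here.

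The 3 TIMP genes in sum had 1103 tags in shRNA-Con against 1263 in the library with the shRNA-SOX2 label, or 479 and 603 CPM, a ratio of 1.26 (interval 1.16 to 1.37). Their shares differed more than their sum. TIMP2 gave 56.0% of these tags in shRNA-Con (interval 53.0% to 59.0%) and 27.4% in the library with the shRNA-SOX2 label (25.0% to 29.9%). TIMP1 gave 43.8% (40.8% to 46.8%) and 70.2% (67.5% to 72.7%). TIMP3 stayed a minor part, 0.181% (0.022% to 0.653%) and 2.45% (1.67% to 3.47%). TIMP2 was thus the leading TIMP by tags in shRNA-Con, and TIMP1 was in the library with the shRNA-SOX2 label, with 0.782 (0.692 to 0.882) and 2.56 (2.26 to 2.91) TIMP1 tags for each TIMP2 tag.

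**Figure D2:**
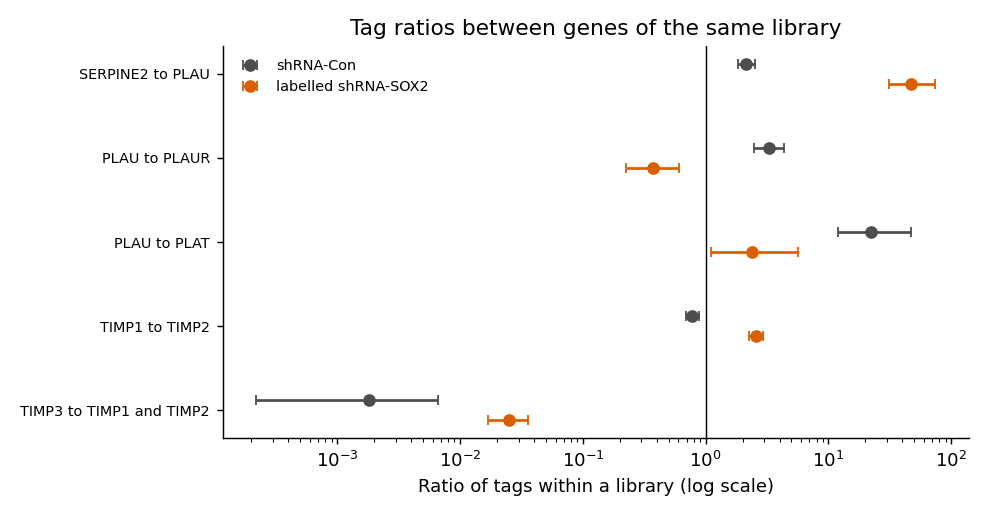
Ratio of tags between genes of the same library (horizontal axis, log scale) in shRNA-Con (grey) and in the library with the shRNA-SOX2 label (orange), with 95% counting intervals as bars and a line at equal tags. The ratios of PLAU to PLAUR and of TIMP1 to TIMP2 lie on opposite sides of 1 in the 2 libraries, and the ratio of SERPINE2 to PLAU goes from 2.14 to 46.8.

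DGE takes a tag per RNA and not fragments along it, so tags were not divided by gene length, and equal capture of each RNA was not tested. In shRNA-Con the order of levels in CPM was TIMP2, TIMP1, SERPINE2, PLAU, CDCP1, PLAUR, PLAT and TIMP3. The counting intervals of TIMP1 and SERPINE2 overlapped, as did those of CDCP1 and PLAUR and those of PLAT and TIMP3. In the library with the shRNA-SOX2 label the order was SERPINE2, TIMP1, TIMP2, PLAUR, TIMP3, PLAU, PLAT and CDCP1. Here the intervals overlapped between TIMP3 and PLAU, PLAU and PLAT, and PLAT and CDCP1. PLAU and CDCP1 lay above PLAUR in the first order and below it in the second.

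With called meaning at least 2-fold, 3 of the 8 genes (SERPINE2, TIMP1 and TIMP3) were higher in the library with the shRNA-SOX2 label, 2 (PLAU and CDCP1) were lower, and 3 (PLAUR, PLAT and TIMP2) were neither. Of the 10045 genes with at least 20 tags, 10.4% were called higher and 13.0% lower. These members were selected on this contrast, so nothing is read from their share. PLAT passed the minimum of 20 tags with exactly 20 and TIMP3 with 33. The median log2 ratio was 0.09 over the 8 genes and -0.10 over all genes tested. The sign of the members' median turned with the processing. It was -0.02 with clean tags and -0.32 with at least 100 tags, beside -0.22 and -0.13 over all genes.

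**Figure D3:**
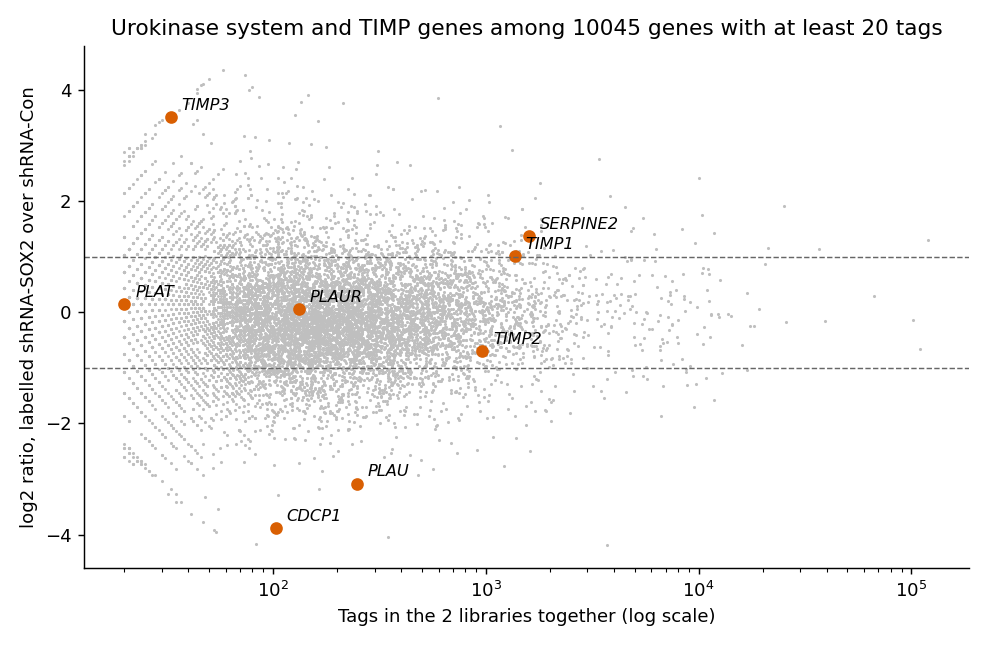
Log2 ratio (vertical axis, counts below 3 set to 3) against total tags in both libraries (horizontal axis, log scale) for the 10045 genes with at least 20 tags (grey), with the 8 genes in orange and dashed lines at 2-fold. PLAU at -3.08 and CDCP1 at -3.88 lie at the lower edge of the cloud, TIMP3 at 3.51 on the upper edge at low tags, and PLAUR and PLAT near 0.

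Other genes of the same pathways were taken from 8 lists by function. Of their 64 genes with at least 20 tags, 12 were higher by at least 2-fold and 6 were lower, with a median log2 ratio of 0.19. These shares, 18.8% and 9.38%, stand beside 10.4% and 13.0% over all genes.

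Among genes of plasminogen binding and other activators, 0 of 7 were higher and 2 were lower, with a median log2 ratio of -0.50. F2RL1, a receptor that serine proteases switch on by cutting it, had 252 tags in shRNA-Con against 110 in the library with the shRNA-SOX2 label (log2 ratio -1.06). C9orf46, a plasminogen receptor also named PLGRKT, had 243 and 109 (-1.02). Both fell short of 2-fold with TMM or median-ratio scaling. PLG itself, the source of plasmin, was not analysed here.

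Among the serpins and other serine protease inhibitors, 1 of 10 was higher and 2 were lower, with a median of -0.35. SERPINI1, a neuronal serpin that inhibits PLAT, had 6 tags in shRNA-Con against 35 in the library with the shRNA-SOX2 label (2.68). SERPINA3, an inhibitor of chymotrypsin-like proteases, had 30 and 5 (-2.45), and SERPINB9, an inhibitor of granzyme B, had 64 and 18 (-1.69). The serpins thus went both ways. SPINT1, an inhibitor of membrane serine proteases, had 2 tags in each library, and SERPINB2 was not analysed here.

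Among the partners of the urokinase receptor and the receptors that clear its complexes, 4 of 13 were higher and 1 was lower, with a median of 0.53. VTN, the matrix protein vitronectin that binds PLAUR, had 40 tags in shRNA-Con against 271 in the library with the shRNA-SOX2 label (2.90). LRP1, which takes up complexes of PLAU with serpins, had 28 and 55 (1.11), and LRPAP1, its chaperone, had 198 and 542 (1.59). ITGA5, a subunit of the fibronectin receptor, had 28 and 67 (1.40). VLDLR, another clearance receptor, had 40 and 7 (-2.38), opposite to LRP1. LRP1 fell short of 2-fold per clean tag of the whole library.

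Of 22 other matrix metalloproteinases, 10 were listed and 5 had at least 20 tags, of which 2 were higher and 0 lower. MMP28 had 5 tags in shRNA-Con against 20 in the library with the shRNA-SOX2 label (2.14). MMP2, a gelatinase that TIMP2 inhibits, had 22 and 42 (1.07), short of 2-fold per clean tag. The 10 listed metalloproteinases had 236 and 203 tags in sum, without MMP14 and the others not analysed here. These sums were below the 1103 and 1263 tags of the 3 TIMPs, but they do not cover all the enzymes. MMP24, named after its values were seen, supplied 147 and 79 of the metalloproteinase tags, 1.69-fold lower in the library with the shRNA-SOX2 label. With at least 100 tags neither higher gene was left. MMP24 alone reached that minimum, so the median of the list, 0.37 before, became its own log2 ratio of -0.76. MMP9, the other gelatinase, had 4 and 0 tags, and MMP1 was not analysed here.

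Of the ADAM and ADAMTS proteases, 3 of 9 were higher and 0 lower, with a median of -0.07 (0.46 with at least 10 tags). ADAMTS7 had 11 and 42 tags (2.07), ADAM23 had 8 and 25 (1.78), and ADAMTS10 had 97 and 202 (1.20). ADAM23 is listed among the proteases by family but lacks the catalytic site.

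Among the partners of MMP14 and the TIMPs, 1 of 12 was higher and 0 lower, with a median of 0.22. PCSK5, a proprotein convertase, had 10 tags in shRNA-Con against 42 in the library with the shRNA-SOX2 label (2.21). TIMP4, the remaining TIMP, had 79 and 61 tags (-0.23), and RECK, a membrane-anchored metalloproteinase inhibitor, had 15 and 17 (0.32). TIMP4 was neither, so of the TIMP family TIMP1 and TIMP3 were called, TIMP1 not per clean tag.

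Of other, mostly membrane, serine proteases, 2 had at least 20 tags. PRSS23, a secreted one, had 465 tags in shRNA-Con against 1344 in the library with the shRNA-SOX2 label (1.67), and ST14 was not analysed here. Among kinases that act with CDCP1, 0 of 6 were higher and 1 was lower. SRC, which phosphorylates CDCP1, had 144 and 146 tags (0.16), and YES1, of the same family, had 107 and 43 (-1.18). CDCP1 was selected on this contrast, so nothing is read from the size of its ratio beside those of the kinases.

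All 8 genes carry the Gene Ontology term extracellular region, which 5.62% of the 13137 genes carry. Of the 437 other genes with this term and at least 20 tags, 22.4% were higher and 13.0% lower by at least 2-fold, beside 10.4% and 13.0% of all genes. Narrower terms did not show this share of higher genes. For serine-type endopeptidase activity, 11.8% of 34 other genes were higher and 5.88% lower. For serine-type endopeptidase inhibitor activity, 12.5% of 24 were higher and 12.5% lower. For metalloendopeptidase activity, 13.2% of 38 were higher and 5.26% lower.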

How the data were processed

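RNA from each polyclone (4 µg of total RNA, oligo(dT) selected) was sequenced as DGE tags. The authors deposited raw tag counts per Entrez Gene ID, and their TPM, the counts scaled to 1000000 clean tags of the whole library. The submitters' processing notes name hg19, and the aligner, the annotation and the use of strand are not given in the sources used here. The column SC was read as shRNA-Con and S1 as the remaining library. The authors' fold changes, p-values and FDR were not used.

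Counts were divided by the total of gene tags, with counts below 3 set to 3 for log2 ratios. Ratio intervals are 95% Clopper-Pearson intervals conditional on the total. Genes needed at least 20 tags in the libraries together, and called means at least 2-fold. Clean tags, recovered from counts and TPM, were 3516261 (shRNA-Con) and 3456212, of which 65.5% and 60.6% fell on genes. The alternatives were TMM (edgeR 4.0.16), median-ratio (DESeq2 1.42.0) and clean-tag scaling, folds of 1.5 and 4, minima of 10 and 100 tags or none, 0.5 added to each count, and no floor. Only the log2 ratios and their intervals were tested on simulated counts, which held counting error and no spread between cultures. All members, SOX2, the called genes of each list (at most 6) and a fixed set of pathway genes are named, except 1 gene of the serpin list that is counted in the list and not reported here. The members and lists were chosen with earlier results of these data known, and the Gene Ontology terms, as given per gene in the deposited table, after the values were seen. Coordinates of genes and promoters are from RefSeq (GRCh38.p14), overlaps from GENCODE release 29, and promoters were found for 7 of the 9 members (not PLAT and TIMP2).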

Additional observations from a re-analysis of the deposited data

How the results depend on the processing

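Each of the 8 genes kept its direction under all scalings and count floors tried, except PLAUR, whose log2 ratio was -0.06 with clean tags. TMM or median-ratio scaling raised log2 ratios by about 0.07 and clean tags lowered them by 0.11, so TIMP1 lost its call with clean tags, leaving 2 of the 8 genes higher. TIMP3 ranged from 3.39 (clean tags) to 4.09 (no floor, an alternative chosen after seeing the data, as was no minimum of tags for the lists of other genes). At a fold of 4, 1 of the 8 genes was higher (TIMP3) and 2 were lower. Over all genes, 2060 were higher and 2667 lower at a fold of 1.5, 201 and 183 at a fold of 4, and 471 and 713 with at least 100 tags. Of the other pathway genes, 15 were higher and 11 lower at a fold of 1.5, 5 were higher and 2 lower at a fold of 4, and 4 and 3 with at least 100 tags. These changes follow from the stricter or looser threshold. TMM scaling gave 1171 higher and 1155 lower genes, and clean tags 864 and 1596, against 1040 and 1306. The medians of several lists changed sign with the minimum of tags. With at least 100 tags the serpin list gave 0.07 and the partners of MMP14 and the TIMPs -0.05. The ADAM and ADAMTS list gave 0.46 with at least 10 tags, and the plasminogen list 0.14 with no minimum. That 0.14 is the log2 ratio of any gene with equal counts in the libraries, or with counts of 3 or fewer in both. It therefore gives no direction for the plasminogen list.

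No paired analysis was possible because each group has 1 library. With 1 library in each group, none was left out. Counts of 10 or fewer (PLAT, CDCP1 and TIMP3 in at least 1 library) give wide intervals, and no interval holds the spread between cultures.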
